A study of Mus musculus with 10 samples.

Results

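The genes described here encode the protein components of the cytosolic ribosome. They were taken by symbol, as rows named Rpl or Rps followed by a number with or without a final a, x or l, together with Rplp0, Rplp1, Rplp2 and Rpsa. The rule found 83 of 20813 genes, 51 of the large and 32 of the small subunit. Of these, 76 are canonical members (46 large, 30 small) and 7 are paralogs or copies whose symbol ends in l. The values come from bulk RNA sequencing of leukemic spleens, taken from mice with a grafted T-ALL (T-cell acute lymphoblastic leukemia), a cancer of immature T cells. All 10 samples came from C57BL/6 mice that were irradiated below the lethal dose and then received, by vein, leukemia cells with a conditional Sirt1 allele. In 5 of them, labelled Sirt1 deleted (replicates 7, 8, 10, 11 and 12), the mice had been given tamoxifen (3 mg per mouse in corn oil, into the abdomen), and in 5 controls (replicates 2 to 6) corn oil alone. No group had tamoxifen without the conditional allele, so an effect of the drug and of the deletion cannot be told apart. The Cre driver, the number of primary leukemias, the age of the mice and the interval to collection are not given in the sources used here, nor whether the mice of a group carried cells of the same leukemia.

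Ribosomal proteins are made in near-equal numbers, because each ribosome holds a single copy of most of them. Their mRNAs are short and abundant and most start with a terminal oligopyrimidine (TOP) tract, a C followed by a run of C and T, through which mTOR and the RNA-binding protein Larp1 adjust their translation to growth. Immature T cells and the leukemias that come from them grow fast and depend on this supply. Rpl5, Rpl11 and Rpl22 have inactivating lesions, and Rpl10 a recurrent missense change, in human T-ALL. Sirt1 itself is a nuclear deacetylase that acts on p53 among other proteins.

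Start regions of 4 members called higher after tamoxifen and of 2 that were not called are shown, because a tract of this kind is the feature that ribosomal protein mRNAs are best known to share. Each is 30 bases of RefSeq's GRCm38.p6 promoter windows, read 5′ to 3′ on the gene's strand, with the longest tract (C followed by at least 6 C or T within 25 bases before to 50 after the annotated start) in capitals.
Rplp2, chr7:141447637-141447666, plus strand: gcgtcagcgtCTTCCTTTCgccgccggacg
Rps12, chr10:23787181-23787210, minus strand: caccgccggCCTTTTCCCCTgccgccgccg
Rpl38, chr11:114668569-114668598, plus strand: gaagcctcgttCTTTCCCCgttctcttcgg
Rps27l, chr9:66946054-66946083, plus strand: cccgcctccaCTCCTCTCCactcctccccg
Rps27, chr3:90213631-90213660, minus strand: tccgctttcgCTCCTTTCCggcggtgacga
Rps6, chr4:86857349-86857378, minus strand: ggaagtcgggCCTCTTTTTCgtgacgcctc
Of the 83 members, 61 had a promoter in the table, with 73 windows of 300 bases. A tract was present in 74.0% of them, against 31.5% of all 32851 promoters. CCGGAAG, searched on both strands over the whole window, was in 35.6% of the members' windows and 8.86% of all. AAGATGG was in 15.1% and 6.34%. Among members called higher in the comparison below, 68.4% of 38 windows held a tract, and among those not called 82.8% of 29 did. Some genes have several windows. By gene, 22 of 29 called higher and 23 of 27 not called had a tract in at least 1 window. For members called lower, 2 of 4 windows held a tract. From the annotated start, the tracts shown began at -22 (Rps27l), -4 (Rplp2), -2 (Rps27), -1 (Rps6), 0 (Rpl38) and 8 (Rps12). The tract of Rps27l thus lies wholly before the annotated start, outside the annotated mRNA. A match describes letters only, and start sites are as annotated.

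The deposited values are estimated read counts per gene divided by DESeq size factors, here called normalized counts. Sample totals were 33.7 to 34.5 M. Differences are labelled Sirt1-deleted minus control on the log2(value + 1) scale, tested with limma over the 15276 genes with a mean of at least 10, and a gene was called at a Benjamini-Hochberg adjusted p under 0.05. Sirt1 did not follow its label. It was 1735, 1803, 1796, 1909 and 1810 in control replicates 2 to 6 and 1925, 1715, 1817, 1812 and 2097 in labelled Sirt1-deleted replicates 7, 8, 10, 11 and 12. Its normalized count averaged 1810 ± 62.5 in controls and 1873 ± 146 under the label Sirt1 deleted (SD, n = 5 each), a log2 difference of 0.05 (SE 0.06, limma adjusted p 0.568). Which exons are deleted is not given, and a value over the whole gene need not show the loss of some of them. All 15 T-lineage markers passed the filter. Of 14 neutrophil markers 13 were higher, with summed levels of 9118 to 12596 in controls and 28810 to 98569 in labelled Sirt1-deleted samples. Of 14 macrophage markers 13 were higher (4246 to 4888, then 8598 to 14488). By limma, 0 of 11 erythroid, 0 of 8 B-cell and 0 of 3 natural killer cell markers were called, and 1, 2 and 0 of them had an unadjusted p under 0.05. Of 6 stromal and endothelial markers tested 2 were lower, and of 15 T-lineage markers 2 were higher and 4 lower. No marker in these lists was at 0 in all samples. The part of these cells in the results below was not tested. In bulk tissue, fewer cells of a type and less RNA per cell cannot be told apart.

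Many ribosomal protein genes were slightly higher under the Sirt1-deleted label than in controls, and a few were lower. Of the 79 members that passed the filter, 38 were called higher, 6 lower and 35 neither. Of all genes tested, 36.1% were called, 16.8% higher and 19.4% lower. The members' median log2 difference was 0.12, against 0.00 over all 15276 genes. The 38 higher members rose by 0.14 (Rpl27) to 0.58 (Rplp2), so no rise exceeded 1.5-fold, and the 6 lower ones were Rpl3l, Rpl10, Rpl3, Rps3, Rpl29 and Rpl32. Whether called or not, 29 members had higher and 6 had lower values without overlap between the groups, beside 11.1% and 12.9% of all genes. The 29 include Rpl7a, Rpl14 and Rpl23a and the 6 include Rpl10a, none of which was called, while Rpl29 was called lower with overlapping groups. The split depended on how samples were scaled. It was 49 higher and 4 lower after upper-quartile rescaling, which called 20.7% of all genes higher and 14.9% lower. After quantile normalization it was 30 and 12, beside 16.2% and 18.0% of all genes. When each sample was shifted to the same median member level it was 19 and 10, beside 10.6% and 22.3%. Without control replicate 2, and likewise without control replicate 5, 25 members were called higher.

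**Figure D1:**
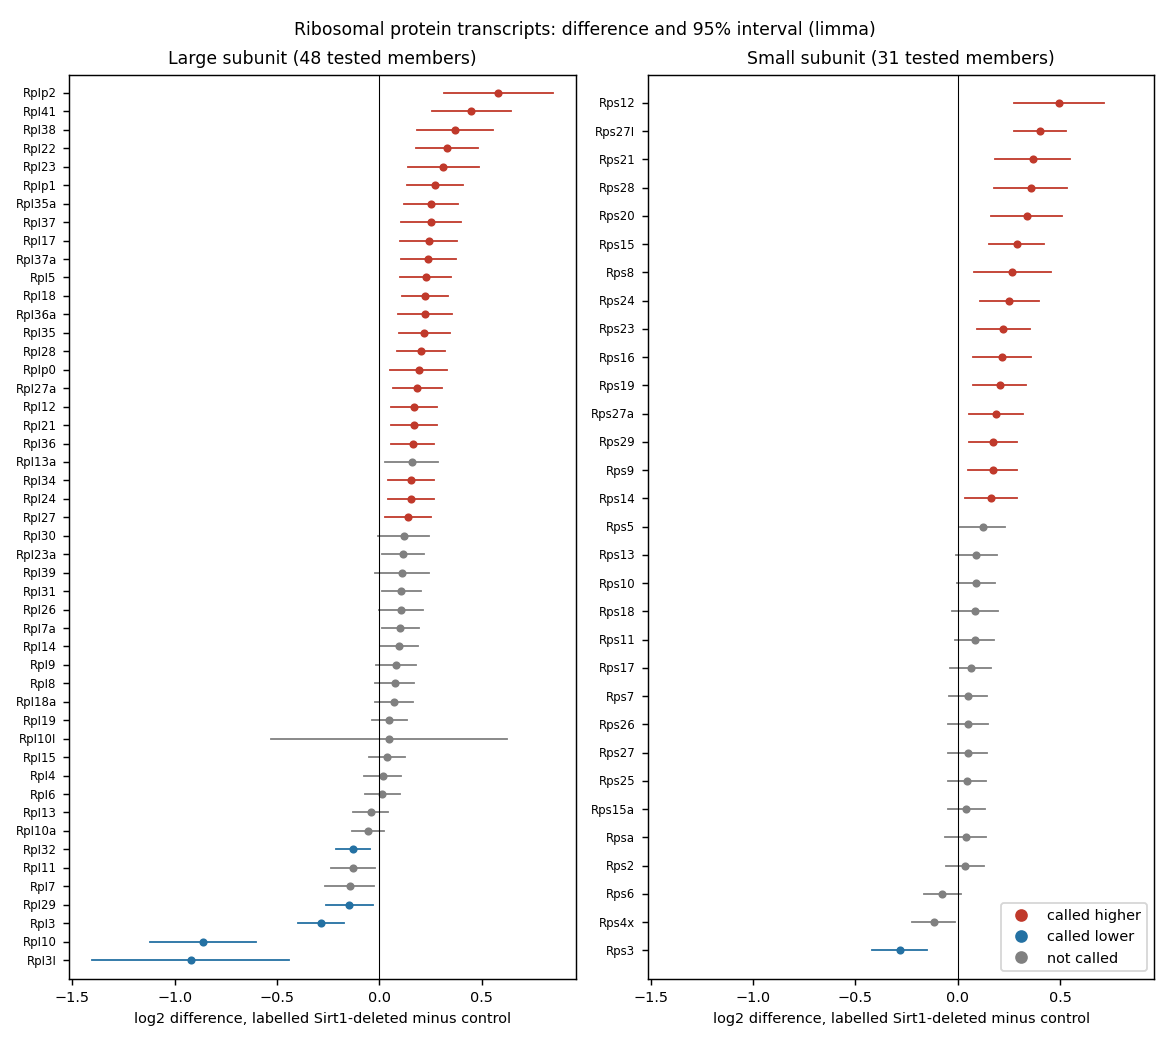
Log2 difference (labelled Sirt1-deleted minus control, x axis) of the 48 large-subunit and 31 small-subunit members tested, with limma's 95% intervals, in order of size; red marks members called higher, blue those called lower, grey those not called. Most points lie between 0 and 0.58, and Rpl10 and Rpl3l stand furthest to the left.

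Both subunits showed this. Of 48 large-subunit members tested, 23 were higher and 5 lower, with a median log2 difference of 0.13. Of 31 small-subunit members, 15 were higher and 1 lower, with a median of 0.12, which was 0.04 after quantile normalization. Within a sample, the mean log2 level of the canonical large-subunit members minus that of the small-subunit members was -0.270 ± 0.0114 (SD, n = 5) in controls and -0.292 ± 0.0227 (SD, n = 5) in labelled Sirt1-deleted samples. The groups' ranges overlapped (-0.278 to -0.252 and -0.319 to -0.267), and the means differed by -0.022. By medians over members the shift was -0.08, from -0.193 ± 0.0239 to -0.278 ± 0.0251 (SD, n = 5 each), and the ranges did not overlap. Neither shift was tested.

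Summed, the 83 rows made up 7.23%, 7.83%, 8.04%, 7.51% and 7.79% of the total in control replicates 2 to 6. They made up 8.30%, 8.20%, 7.85%, 8.06% and 8.85% in labelled Sirt1-deleted replicates 7, 8, 10, 11 and 12. The groups overlapped, since control replicate 4 lay above labelled Sirt1-deleted replicate 10, and the means differed by 0.573 percentage points. Members moved together from sample to sample. Control replicate 2 was the lowest control in 69 of 76 canonical members and control replicate 4 the highest in 54. Labelled Sirt1-deleted replicate 12 was the highest of its group in 57 of 76, and in 36 of the 37 called higher, while replicate 10 was the lowest in 49. Without labelled Sirt1-deleted replicate 12, 31 members were called higher and 5 lower.

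**Figure D2:**
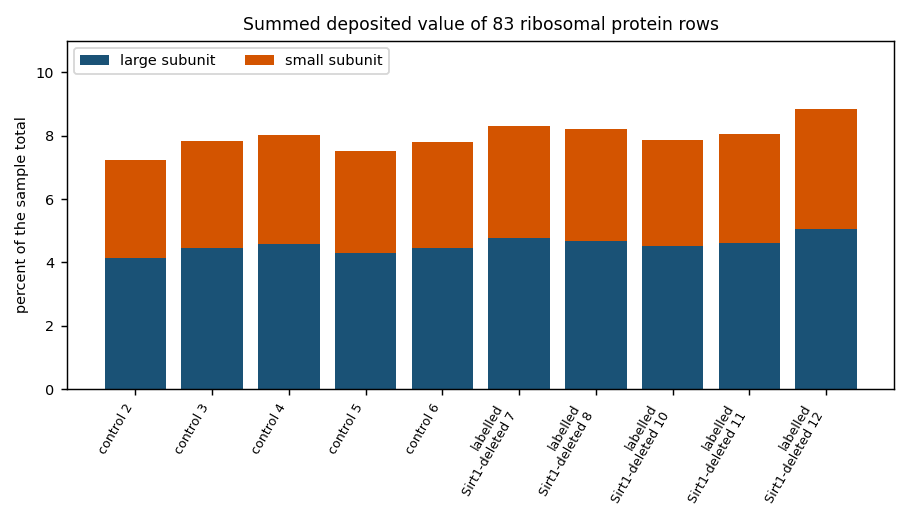
Summed normalized count of the 51 large-subunit (blue) and 32 small-subunit (orange) rows as a percent of each sample's total, 1 bar per sample. Control bars reach 7.23% to 8.04% and labelled Sirt1-deleted bars 7.85% to 8.85%, with both subunits taller together.

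The stalk of the large subunit recruits translation factors, and its 3 genes, Rplp0, Rplp1 and Rplp2, were all called higher. Rplp2 (chr7:141447370-141451585) had the largest rise of any member. Its normalized counts were 25978, 30344, 33360, 28754 and 32598 in control replicates 2 to 6, and 50460, 41568, 36764, 39154 and 61024 in labelled Sirt1-deleted replicates 7, 8, 10, 11 and 12. Every labelled Sirt1-deleted value lay above every control, and replicates 7 and 12 were the highest. The log2 difference was 0.58 (SE 0.12, limma adjusted p 0.00417). Rplp1, which pairs with Rplp2 on the stalk, went from 54766 ± 3811 to 66061 ± 4950 (SD, n = 5 each), a log2 difference of 0.27 (adjusted p 0.00649), again without overlap. Rplp0, the base that holds both, was at 16231 ± 438 and 18618 ± 1967 (SD, n = 5 each). Its rise of 0.19 (adjusted p 0.0347) had overlapping groups, and it missed the threshold with its near-identical copies added and without any 1 of 7 of the 10 samples.

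After Rplp2, the largest rises in the large subunit were those of Rpl41, Rpl38 and Rpl22. Rpl41 (chr10:128548114-128549305) encodes the shortest protein of the ribosome. It was 43764, 48765, 53487, 47342 and 51413 in controls and 69710, 62494, 58634, 62180 and 83135 in labelled Sirt1-deleted samples, in the order of the replicates above. The groups were apart, with a log2 difference of 0.45 (SE 0.09, limma adjusted p 0.00284). Rpl38 (chr11:114668524-114672331), known for its role in the translation of Hox mRNAs in the embryo, was 8994, 10542, 10616, 9689 and 10630 in controls. In labelled Sirt1-deleted samples it was 13812, 12443, 11496, 11862 and 15929. The groups did not overlap, and the log2 difference was 0.37 (SE 0.08, adjusted p 0.006). Rpl22 (chr4:152325742-152334071), which developing T cells need and T-ALL often loses, went from 17074 ± 1159 to 21515 ± 2209 (SD, n = 5 each), a log2 difference of 0.33 (adjusted p 0.00434). Its lowest labelled Sirt1-deleted value, 19623, was above the highest control, 17990. Rpl39, which lines the exit tunnel for the new peptide, was not called: 17635 ± 1061 and 19081 ± 1530 (SD, n = 5 each), with a 95% interval of the log2 difference from -0.02 to 0.24. Rpl13a was at 89487 ± 5288 and 99821 ± 6650 (SD, n = 5 each), a difference of 0.16 that just missed the threshold (adjusted p 0.0528) and passed it after upper-quartile rescaling (0.0274).

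Of 46 canonical large-subunit members, 4 were lower (8.70%), a smaller share than the 19.4% of all genes. Rpl3 (chr15:80077791-80091868), a core protein near the peptidyl transferase centre, was 77117, 76345, 76292, 75432 and 75732 in controls. It was 58788, 63658, 67520, 65992 and 57251 in labelled Sirt1-deleted samples. Controls lay within a narrow band and all labelled Sirt1-deleted samples were below it, with a log2 difference of -0.29 (SE 0.05, limma adjusted p 0.00196). Rpl29 was 23338 ± 397 in controls and 21127 ± 1653 in labelled Sirt1-deleted samples (SD, n = 5 each), a log2 difference of -0.15 (adjusted p 0.0472) with overlapping groups, and the call was lost without any 1 of 8 of the 10 samples. Rpl32 fell by 0.13 on the log2 scale (adjusted p 0.0228) without overlap.

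Rpl10 (chrX:74270812-74273135) joins the large subunit late in its maturation and is mutated in human T-ALL. Its row fell the most of all canonical members. Control values were 18221, 14534, 14543, 14872 and 13338, and labelled Sirt1-deleted values 7323, 8414, 9426, 10340 and 6424. The groups were far apart, with a log2 difference of -0.86 (SE 0.12, limma adjusted p 0.00058). The fall was smaller once the values of near-identical sequences were summed. A second locus, Rpl10-ps3 (chr9:50344201-50344968, minus strand, annotated as protein coding), carries the whole Rpl10 coding sequence without a difference, while the paralog Rpl10l differs. The first 90 coding bases are shown, from GENCODE M21 on GRCm38, with the bases of Rpl10l that differ from Rpl10 in capitals.
Rpl10: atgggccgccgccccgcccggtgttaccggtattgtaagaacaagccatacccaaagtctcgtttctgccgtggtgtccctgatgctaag
Rpl10-ps3: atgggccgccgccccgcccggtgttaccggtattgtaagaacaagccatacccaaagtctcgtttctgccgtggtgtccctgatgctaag
Rpl10l: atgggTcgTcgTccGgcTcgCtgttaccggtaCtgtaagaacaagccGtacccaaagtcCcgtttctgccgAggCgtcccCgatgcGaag
The Rpl10-ps3 row held 29031 ± 2396 in controls and 29795 ± 1984 in labelled Sirt1-deleted samples (SD, n = 5 each), more than the Rpl10 row itself. The sum of Rpl10 and its 8 near-identical copies was 44252 ± 619 and 38309 ± 3466 (SD, n = 5 each). It was still lower without overlap, by a log2 difference of -0.21 (SE 0.06, limma adjusted p 0.0142). The row named Rpl10 held 28.4% of that sum.

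Such copies touch many members. Table rows whose annotated transcript matches a member's coding sequence at 95% identity or more over 50% or more of its length numbered 436, for 69 members, and 33 of them had a mean of 400 or more, 19 without any difference over at least 99% of the coding sequence. For 7 canonical members (Rpl5, Rpl10, Rpl12, Rpl27a, Rplp0, Rps12 and Rps23) the member's own row held less than 50% of the sum. With copies added, 36 members were higher and 6 lower. These included 35 of the 38 and all 6 called before. Rplp0, Rpl5 and Rpl12 were no longer called and Rps13 became higher (log2 difference 0.14, against 0.09 for its own row). Among the rows added to Rps13, its identical copy Rps13-ps2 was uneven. It was 0, 0, 218, 0 and 35.2 in control replicates 2 to 6 and 190 to 2339 in labelled Sirt1-deleted samples. In the fit with copies added, 16.9% of all genes were called higher and 19.7% lower.

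**Figure D3:**
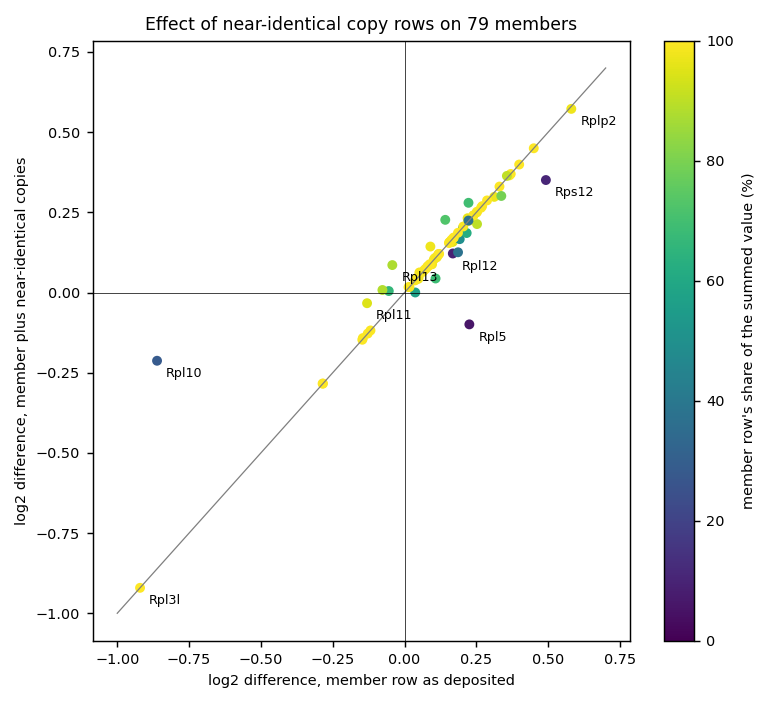
Log2 difference of each of 79 tested members from its own row (x axis) against that of the member plus its near-identical copies (y axis), coloured by the share of the sum that the member's row holds. Most points lie on the grey line of equal values; Rpl10, Rpl5 and Rps12 lie off it.

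Rpl5 and Rpl11 travel together with the smallest ribosomal RNA of the large subunit and, when free, bind Mdm2, the ligase that degrades p53. The Rpl5 row (chr5:107900502-107909005) was higher, at 2794, 2878, 3245, 3041 and 3182 in controls and 3606, 3422, 3351, 3430 and 3891 in labelled Sirt1-deleted samples (log2 difference 0.23, limma adjusted p 0.0103). The groups did not overlap, but this row held only 5.53% of the sum of Rpl5 and its near-identical copies. The processed pseudogene Gm15500 (chr7:114705217-114706235), which holds the whole Rpl5 coding sequence, had 58336 ± 1593 and 53763 ± 2692 (SD, n = 5 each). The sum of Rpl5 and its copies was 61420 ± 1745 and 57360 ± 2480 (SD, n = 5 each), a log2 difference of -0.10 that was not called (adjusted p 0.0999). No direction is therefore given for Rpl5. Rpl11 was at 37739 ± 758 and 34530 ± 2236 (SD, n = 5 each), a log2 difference of -0.13 (95% interval -0.24 to -0.02, adjusted p 0.0548), and -0.03 with copies added. Among the rows added to Rpl11, the copy Gm10288 was uneven. It ranged from 2.91 to 1157 in controls and from 1667 to 5528 in labelled Sirt1-deleted samples.

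In the small subunit, Rps12 (chr10:23785183-23787275), known from flies as a sensor in cell competition, had the largest rise. It was 4279, 4509, 5320, 4794 and 5157 in controls and 7442, 6433, 5971, 5744 and 8503 in labelled Sirt1-deleted samples. The groups did not overlap, and the log2 difference was 0.49 (SE 0.10, limma adjusted p 0.00359). The row held 10.6% of the sum with its copies. Its identical copy Rps12-ps3 rose from 43300 ± 2916 to 54753 ± 6313 (SD, n = 5 each), and the sum was higher by 0.35 (adjusted p 0.00502). Unlike those of Rpl5, the Rps12 row and its copies thus had differences of the same sign. Rps21, Rps28, Rps20 and Rps15 were higher by 0.37, 0.36, 0.34 and 0.29, each without overlap.

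Rps3 (chr7:99477896-99483738), which lies at the mRNA entry site and also acts in DNA repair, was the single small-subunit member called lower. Controls held 62102, 62438, 63413, 62093 and 63162, and labelled Sirt1-deleted samples 49016, 54066, 55215, 55680 and 44252. The groups were apart, with a log2 difference of -0.28 (SE 0.06, limma adjusted p 0.0047), and no near-identical copy of it was found. Rps6, the substrate of the S6 kinases, was at 63216 ± 2197 and 59914 ± 1328 (SD, n = 5 each), a difference of -0.08 that was not called (95% interval -0.17 to 0.01) and was 0.01 with copies added. X-linked Rps4x was at 64551 ± 2343 and 59486 ± 2981 (SD, n = 5 each), with a difference of -0.12 (adjusted p 0.0707). Both passed the threshold after quantile normalization.

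Rps19, the gene most often mutated in Diamond-Blackfan anaemia, rose from 26038 ± 1670 to 30014 ± 2143 (SD, n = 5 each), a log2 difference of 0.20 (limma adjusted p 0.0191). Rps14, lost in a myelodysplastic syndrome with anaemia, was at 43793 ± 3020 and 48943 ± 3003 (SD, n = 5 each), at the edge of the threshold (0.16, adjusted p 0.0499), and its call was lost without any 1 of 8 samples. Rps27a, made as a fusion with ubiquitin, was at 33262 ± 2071 and 37863 ± 2872 (SD, n = 5 each; 0.19, adjusted p 0.0313), a call lost without any 1 of 5 samples. Rpsa, which is also known as a laminin receptor, was not called, at 95222 ± 4057 and 97790 ± 3002 (SD, n = 5 each; 95% interval -0.06 to 0.14). Its difference of 0.04 became -0.17 after quantile normalization (adjusted p 0.0153), so it has no direction here. Of 19 members that are Diamond-Blackfan anaemia genes, 9 were higher and 0 lower, with a median log2 difference of 0.11. Their share of higher calls, 47.4%, was close to the 48.1% of all members tested, beside 16.8% higher and 19.4% lower over all genes. Rpl5, discussed above, is among the 9, and with copies added 8 of the 19 were higher. By limma's unadjusted p under 0.05, 11 of these 19 passed, and quantile normalization called 7 higher and 1 lower.

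The paralog pair Rps27 and Rps27l differed. Rps27l is a target of p53 and lies on another chromosome (chr9:66946086-66949516) than Rps27 (chr3:90212522-90213651). Their coding sequences are equally long and 76.2% identical. The first 90 bases follow, with the 24 positions that differ in capitals in both.
Rps27: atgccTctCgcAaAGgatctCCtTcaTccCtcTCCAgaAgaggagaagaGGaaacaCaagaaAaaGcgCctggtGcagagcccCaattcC
Rps27l: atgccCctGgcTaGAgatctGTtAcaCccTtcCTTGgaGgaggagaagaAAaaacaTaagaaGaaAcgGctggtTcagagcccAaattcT
Rps27l was 3929, 4298, 4568, 4597 and 4660 in controls and 5460, 5508, 5774, 6249 and 6074 in labelled Sirt1-deleted samples. All labelled Sirt1-deleted values lay above all controls, with a log2 difference of 0.40 (SE 0.06, limma adjusted p 0.00074), a call that held in all 14 alternatives with all samples and without each sample in turn. Rps27 was 16367, 18375, 18170, 17450 and 17794 in controls and 18276, 18409, 17295, 18400 and 18710 in labelled Sirt1-deleted samples. Here the groups overlapped (log2 difference 0.05, 95% interval -0.05 to 0.14). Per kilobase of coding sequence, the level of Rps27l was 17502 in controls and 23067 in labelled Sirt1-deleted samples, below the 69965 and 72293 of Rps27. The difference between the paralogs' responses was not tested.

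**Figure D4:**
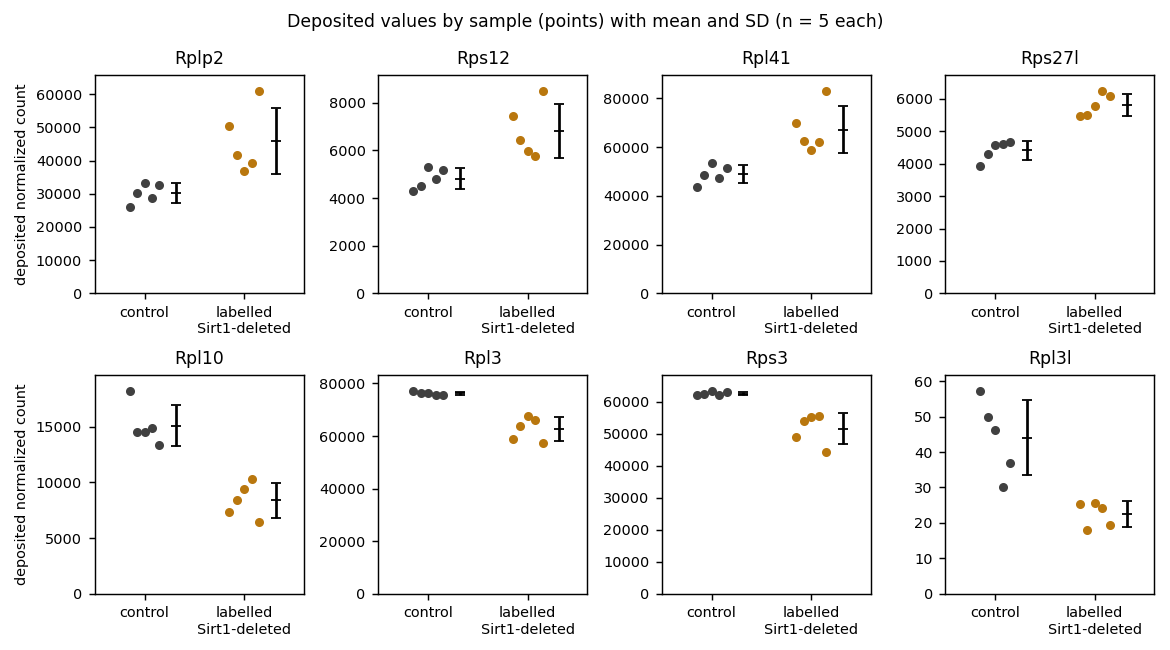
Normalized count of 8 members in each sample (points; y axes start at 0 and differ between panels), with mean and SD (n = 5 per group) beside the points. Rplp2, Rps12, Rpl41 and Rps27l are higher and Rpl10, Rpl3, Rps3 and Rpl3l lower in all labelled Sirt1-deleted samples than in any control.

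The remaining paralogs were near the floor of detection. Rpl3l (chr17:24727820-24736143), a form of Rpl3 known from heart and skeletal muscle, had normalized counts of 57.2, 49.8, 46.1, 30.3 and 37.0 in controls and 25.3, 17.9, 25.7, 24.2 and 19.4 in labelled Sirt1-deleted samples. It was lower without overlap, by -0.92 (SE 0.22, limma adjusted p 0.00766). Per kilobase its level was 36.1 in controls, against 63014 for Rpl3, with which it shares 73.2% of coding bases. Rpl10l, known from testis, was 47.9 ± 14.5 and 49.9 ± 16.4 (SD, n = 5 each), with a 95% interval of -0.53 to 0.62 that leaves its direction undetermined. Rpl39l, also known from testis, lay between 0 and 3.40 in all samples and had the lowest level per kilobase of any member with a coding length. Rps4l, Rpl6l and Rpl32l, annotated as processed pseudogenes, had control means of 7.33, 4.21 and 4.56. These and Rpl39l were the 4 members under the filter. The highest levels per kilobase over all samples were those of Rpl41, Rplp1 and Rpl13a. For Rpl41 the untranslated parts, which are also counted, are longer than the coding sequence of 75 bases and inflate this figure.

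Among canonical members, the difference declined with the length of the coding sequence. Of the 27 members with the shortest coding sequences (75 to 405 bases), 18 were higher and 1 lower (66.7% and 3.70%). Their median log2 difference was 0.22. Of 24 with 408 to 564 bases, 15 were higher and 1 lower (62.5% and 4.17%), with a median of 0.16. Of 25 with 576 to 1257 bases, 4 were higher and 3 lower (16% and 12%), with a median of 0.04. Over all genes 16.8% were higher and 19.4% lower, so the longest members' share of higher calls from their own rows was near that of all genes. With copies added, 2 of these 25 were higher and 3 lower (8% and 12%), beside 16.9% and 19.7% of all genes. After quantile normalization the median of these 25 was -0.03. There, 2 were higher and 8 lower (8% and 32%), beside 16.2% and 18.0% of all genes. Spearman's rho between difference and coding length was -0.56 over the 76 members, -0.60 with copies added and -0.48 after a correction of each sample for transcript length and GC content. All these points come from the same 10 libraries and share their depth and RNA quality, so the figure is a description across genes. Over 15266 tested genes, rho with transcript length was -0.09. That length is the median of a gene's annotated transcripts with their untranslated parts, so this value is not on the same measure as the members' rho. Whether RNA integrity or fragment selection differed between the groups was not tested.

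**Figure D5:**
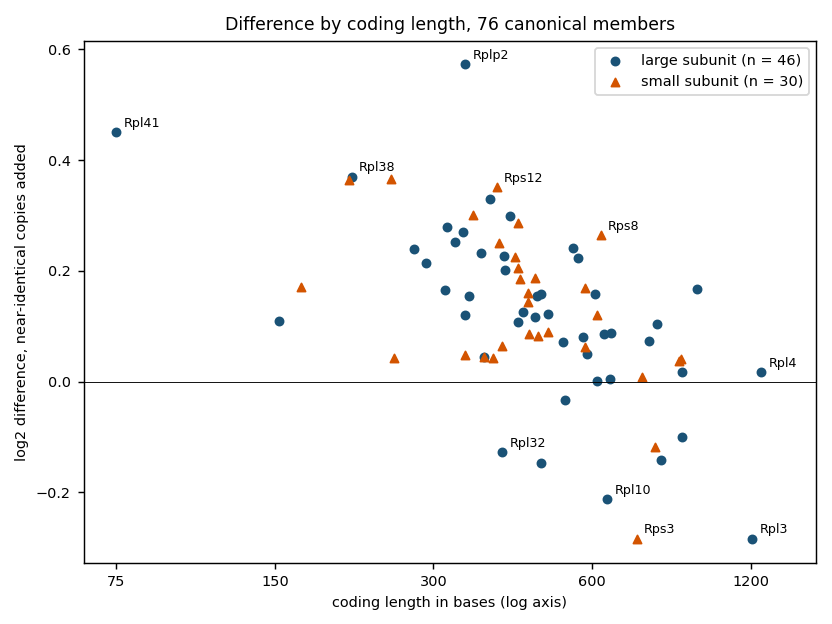
Log2 difference with near-identical copies added (y axis) against coding length in bases (x axis, log scale) for 76 canonical members; circles are large-subunit and triangles small-subunit members. Short coding sequences such as Rpl41 and Rpl38 lie high and long ones such as Rpl3 and Rps3 low.

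Among 8 ribosomal genes that the symbol rule misses, 3 were higher and 1 lower. These shares, 37.5% and 12.5%, stand beside 16.8% and 19.4% of all genes. Fau, made as a ubiquitin-like fusion to a small-subunit protein, rose from 22059 ± 1741 to 29132 ± 3740 (SD, n = 5 each), a log2 difference of 0.40 (limma adjusted p 0.00408). Rpl36al rose by 0.31 (adjusted p 0.00101) and Rps3a1 by 0.25 (adjusted p 0.0116), though Rps3a1 missed the threshold after quantile normalization (0.385). Rpl7l1, a relative of Rpl7 that acts in ribosome assembly, fell from 5977 ± 225 to 4843 ± 546 (SD, n = 5 each), a log2 difference of -0.31 (adjusted p 0.00528). Rpl22l1, the paralog that can stand in for Rpl22, was at 6443 ± 496 and 7220 ± 567 (SD, n = 5 each; 0.16, adjusted p 0.0677). Rack1 and Rps27rt were not called, with differences of 0.09 and -0.20.

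Other TOP mRNAs, which share the start tract with ribosomal protein mRNAs but encode elongation and initiation factors and related proteins, divided. Of 18 measured, 5 were higher (Eef1b2, Eef1d, Tpt1, Naca and Btf3) and 7 lower (Eef1a1, Eef2, Eif3e, Eif3f, Eif3h, Eif3l and Eif4b), with a median of -0.03 that was 0.03 after upper-quartile rescaling. The shares were 27.8% higher and 38.9% lower, beside 16.8% and 19.4% of all genes. Eef1b2, an exchange factor for the elongation factor Eef1a1, rose from 33585 ± 2579 to 41917 ± 4608 (SD, n = 5 each; log2 difference 0.32, limma adjusted p 0.00771). Eef1a1 itself fell from 413254 ± 3714 to 349718 ± 26954 (SD, n = 5 each; -0.24, adjusted p 0.00796). Eef2, which moves the ribosome along the mRNA, fell by 0.28 on the log2 scale (adjusted p 0.00302). In these 18, Spearman's rho with coding length was -0.74, so here too the longer genes were the lower ones.

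Of 16 regulators that act on ribosomal protein mRNA translation, 2 were higher and 4 lower. These shares, 12.5% and 25%, were near the 16.8% and 19.4% of all genes, so the count is no result about the regulators as a list. Tsc2, a brake on mTOR, rose from 1667 ± 150 to 2445 ± 271 (SD, n = 5 each; log2 difference 0.55, limma adjusted p 0.000799), and Rps6kb2, an S6 kinase, by 0.29 (adjusted p 0.0421). Rptor, the scaffold of the mTOR complex that reads nutrients, fell from 2336 ± 192 to 1782 ± 102 (SD, n = 5 each; -0.39, adjusted p 0.00123). Eif4ebp2, Rps6kb1 and Larp4 fell by 0.29, 0.22 and 0.27 on the log2 scale, Larp4 at an adjusted p of 0.0499. Larp1, which binds the TOP tract, was not called, at 19501 ± 424 and 18910 ± 1582 (SD, n = 5 each; 95% interval -0.16 to 0.07).

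Of 13 measured genes for chaperones of ribosomal proteins and for the link to p53, 5 were higher and 2 lower, or 38.5% and 15.4%, beside 16.8% and 19.4% of all genes. Cdkn1a, a p53 target that halts the cell cycle, rose from 297 ± 38.3 to 1108 ± 256 (SD, n = 5 each), a log2 difference of 1.88 (limma adjusted p 3.52e-05). Mdm2, which p53 also drives, rose by 0.23 (adjusted p 0.00593), and the p53 gene Trp53 itself fell from 9296 ± 352 to 7579 ± 1097 (SD, n = 5 each; -0.31, adjusted p 0.0176). Among chaperones, Aamp and Bccip rose by 0.20 each and Tsr2, the partner of Rps26, by 0.16, while Heatr3, which brings Rpl5 into the nucleus, fell by 0.19 on the log2 scale. The list joins chaperones with p53 genes, and its count says nothing of either alone.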

How the data were processed

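RNA was sequenced from 10 leukemic spleens, 5 per group, after red cell lysis and strand-specific library preparation, per the labels' protocols. Per the submitters' processing notes, the authors used kallisto 0.44.0, DESeq and mm10; the annotation is not given in the sources used here. The signal that the authors deposited is an estimated count per gene divided by DESeq size factors. All 10 columns belong to samples (0 columns do not). Whole reads could not be recovered: 8.22% to 71.5% of low values per sample lay within 0.1 of a whole read, so read depth is unknown and no counting intervals are given.

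Values were tested as log2(value + 1) with limma 3.58.1 (intensity trend, R 4.3.3) over 15276 genes with a mean of at least 10, with Benjamini-Hochberg adjustment at 0.05. The labels do not say whether samples are separate leukemias. The p-values set each difference against the spread between these samples, and need not hold for other leukemias. In data simulated for this comparison over 15276 genes, the test recovered 99 of 100 2-fold and 72 of 100 1.5-fold changes and made 2 false calls. Genes were drawn independently there, with a common dispersion (spread beyond counting noise). The members here moved together, and no rise among them exceeded 1.5-fold. The simulation thus gives no rate of recovery or of false calls for the members. Positions and coding lengths come from GENCODE M21 (GRCm38), copies from BLAST 2.17.0 and start regions from RefSeq.

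The members and gene lists were chosen with earlier results of these data known. Genes named are those fixed by role, the 5 largest rises and falls called, the 3 highest and lowest levels per kilobase, and ribosomal genes missed by the symbol rule, of which 1 is not reported here. Genes of the added lists, and Rpl32, Rps21, Rps28, Rps20, Rps15, Rpl27, Rpl12, Rps13, Rpl7a, Rpl14, Rpl23a and Rpl10a, were named after their values were seen. Alternatives covered pseudocount, filter, scaling, test, single samples and copies.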

Additional observations from a re-analysis of the deposited data

Results flagged for a closer look

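Of 76 sets of 5 values examined (35 named genes and 3 measures over the members, in each of the 2 groups), 3 held a value whose gap to its neighbour was over 0.71 of the whole range, a rate chance gives in about 1 set in 20. Rack1 was 72163 in labelled Sirt1-deleted replicate 12 and 59481 to 62705 in the other 4 (gap over range 0.746). Rpl22l1 was 8189 in the same sample and 6696 to 7118 in the others (0.717). Rpl36al was 9020 in control replicate 2 and 10020 to 10420 in the other controls (0.714). Labelled Sirt1-deleted replicate 12 and control replicate 2 are also the samples in which most ribosomal protein genes were the highest and the lowest of their groups.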

How the results depend on the processing

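No paired analysis was possible because no number in the titles occurs in both groups. Whole reads were not recovered, so edgeR and DESeq2 were not run. The number of members called higher was 19 with an equal member median and 25 to 40 when each sample was left out. The number called lower was 12 after quantile normalization, 10 with an equal member median and 4 to 9 when each sample was left out. With an equal member median, which by construction removes a shift common to all members, the median log2 difference was 0.0369 over large-subunit members and 0.0272 over small-subunit members; the latter was 0.0427 after quantile normalization. When each sample was left out, these medians were 0.104 to 0.154 and 0.0910 to 0.167. The median over all features was 0.0284 with a minimum mean of 1, 0.0282 with no filter, -0.0416 with a minimum mean of 50, 0.0584 after upper-quartile rescaling, -0.0267 after quantile normalization and -0.0933 with an equal member median. The summed share differed by 0.237 percentage points for small-subunit members alone and by 0.423 to 0.674 when each sample was left out. The large minus small difference was -0.0847 by medians and -0.0285 to -0.0155 when each sample was left out. Rpl5 reversed with near-identical copies added (-0.0993) and Rpsa after quantile normalization (-0.172). Where not stated, the cause was not tested. Of 33 named genes tested, 20 kept their call in all 14 alternatives with all samples. Copies and the length and GC correction were chosen after seeing the data.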
